A study of Mus musculus with 8 samples.

Results

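The mitosis genes are a set of 50 genes, listed by name, whose products take a cell through division: the cyclins, kinases and phosphatase that start mitosis, the transcription factors that switch on its genes, the spindle checkpoint and anaphase machinery, the chromosomal passenger complex, the kinetochore, the spindle motors, the proteins that compact chromosomes, and those that complete cytokinesis. They were measured on Illumina bead arrays in whole lungs of mouse embryos at E18.5. Of the 50 genes, 43 had at least 1 probe under their symbol, with 67 probes among them, and 35 passed the detection filter, out of 10298 genes that passed it on the whole array. The filter kept a probe with detection p-values below 0.05 on the 2 arrays of any 1 group. The 7 genes with no probe under their symbol were Ccnb1, Aurkb, Cenpf, Mki67, Smc4, Ncapg and Racgap1. Another 8 genes, Ccnb2, Nek2, Bub1, Cenpe, Nuf2, Hmmr, Kif20a and Ect2, had probes of which none passed. Of the 35 genes tested, 34 were detected on all 8 arrays; Ccna2 was detected on 7, and the array that missed it was 1 of the wild-type PTU pair.

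As background, most of these genes are off in resting cells and are transcribed late in the cell cycle. Repressor complexes that include DREAM hold them off in quiescent cells through the cell cycle genes homology region (CHR) of their promoters, and MYBL2 and FOXM1, acting with the MuvB core, activate them as a cell approaches division. The fetal lung still divides in its epithelium, mesenchyme and vessels late in gestation, while parts of it differentiate.

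The groups were SMRTmRID lungs with PTU, SMRTmRID lungs on control chow, wild-type lungs with PTU and wild-type lungs on control chow, each with 2 arrays. SMRT is a corepressor that nuclear receptors bind through its receptor interaction domains, and SMRTmRID is an allele of it carried in a c57Bl6/J background; wild-type lungs were c57Bl6/J. PTU, propylthiouracil, blocks the synthesis of thyroid hormone. It was given as a 0.15% diet from E16.5 for 2 days. Both arrays of a group are labelled as technical replicates of it, which leaves 1 RNA sample per group: the p-values below measure the spread between arrays and compare RNA samples, not genotypes or diets over animals. How many embryos went into each RNA, and their sex, are not given in the sources used here. In the text, mRID stands for SMRTmRID, and the arrays of a group are called A and B after their column names. Lung identity was checked with 14 epithelial markers, of which 12 were tested and all 12 were detected on both arrays of every group, with summed signals of 57480 to 59840. Mean raw signals ran from 293.7 to 376.1 per array and 54.7% to 58.8% of probes were detected. In a whole tissue, more dividing cells and more RNA per dividing cell cannot be told apart.

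Wild-type lungs on control chow had the lowest signal of the mitosis genes. Each gene's log2 signal was set against its own mean over the 8 arrays, and the median of these deviations over the 35 genes was -0.18 and -0.14 on the wild-type control arrays. It was -0.03 and -0.01 on the mRID PTU arrays, 0.08 and 0.10 on the mRID control arrays, and 0.09 and 0.09 on the wild-type PTU arrays. The medians over all 10298 genes stayed within -0.02 and 0.01 on every array. On each wild-type control array 5 of the 35 genes lay above their mean, against 15 and 16 on the mRID PTU arrays, 26 and 28 on the mRID control arrays and 26 and 29 on the wild-type PTU arrays. The wild-type control mean was the lowest of the 4 group means for 25 of the 35 genes, 71.4%, as it was for 25.8% of all genes. For 14 of the 35 genes all 6 other arrays lay above both wild-type control arrays, where 7.91% of all genes had that pattern; for 0 of the 35 genes did all 6 lie below, the pattern of 8.92% of all genes. The 14 genes were Plk1, Aurka, Foxm1, Bub1b, Mad2l1, Cdc20, Birc5, Cenpa, Ndc80, Kif22, Kif2c, Ncapd2, Ncaph and Kif23. The pattern was read from the brightest kept probe of each gene. Another kept probe did not hold it in Foxm1, Cdc20, Birc5 and Ncapd2. The second Foxm1 probe, for example, was at 6.25 on wild-type PTU array A, against 6.39 and 6.42 on the wild-type control arrays.

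**Figure D1:**
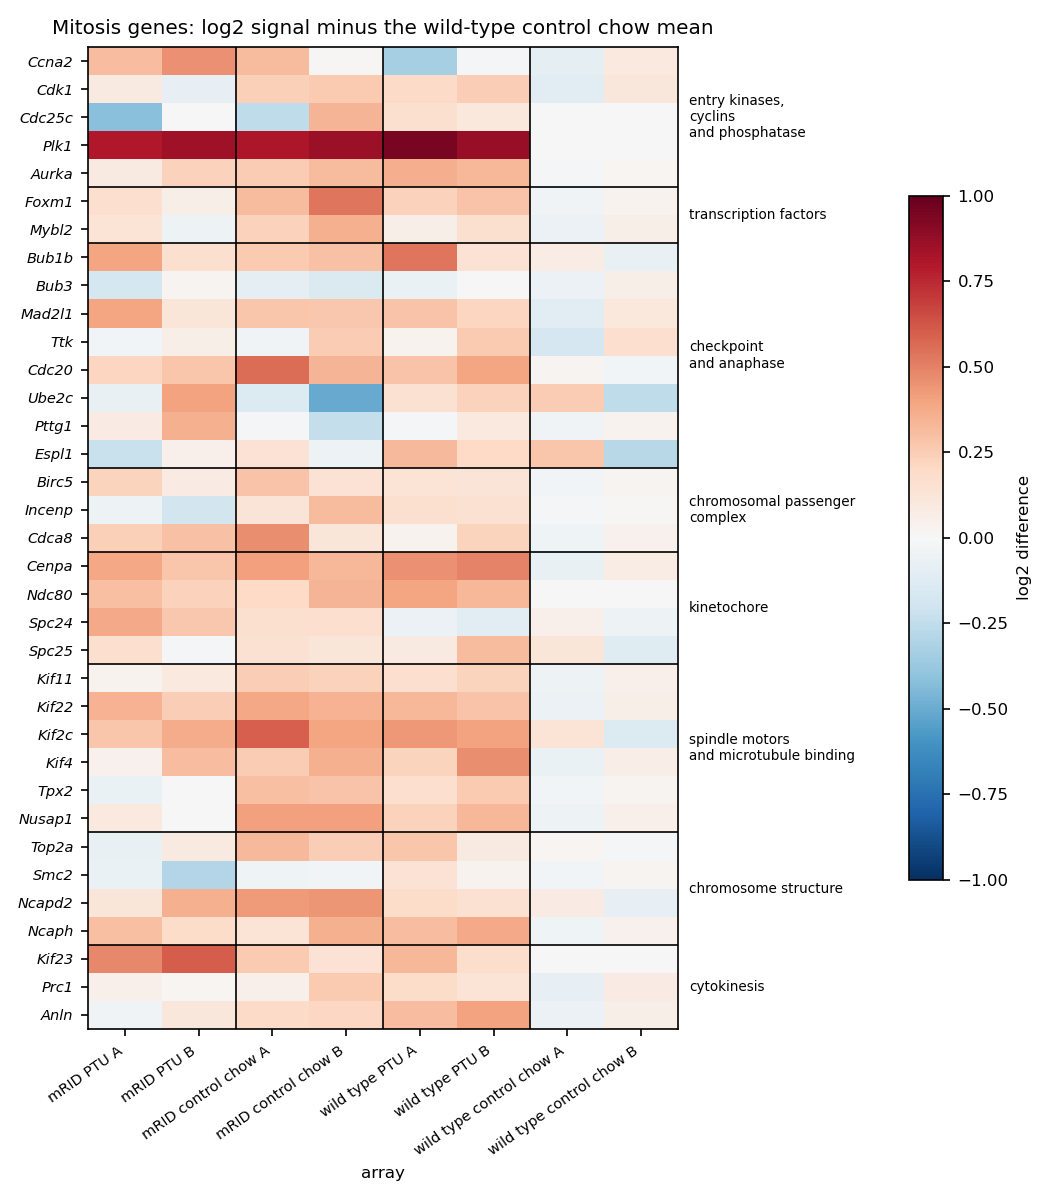
Heat map of the 35 tested mitosis genes (rows, grouped by role) on the 8 arrays (columns, A and B of mRID PTU, mRID control, wild-type PTU and wild-type control, left to right); colour is the log2 signal minus the gene's mean over the 2 wild-type control arrays, red above it and blue below. Each row is the brightest kept probe of its gene. Plk1 is the deepest red row, and in 14 of the 35 rows all 6 arrays of the other groups lie above both wild-type control arrays.

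Plk1 is the Polo-like kinase that drives mitotic entry, centrosome maturation and kinetochore attachment. It was the 1 member with both an adjusted p under 0.05 and a difference of at least 1.5-fold in a comparison of 2 groups. Its log2 signal was 7.91 and 7.96 in mRID PTU lungs, 7.92 and 7.98 in mRID control lungs, 8.06 and 7.98 in wild-type PTU lungs, and 7.11 and 7.11 in wild-type control lungs. The wild-type control arrays stood apart, and the other 6 arrays lay within a narrow band. On control chow Plk1 rose in mRID lungs relative to wild type by 0.84 on the log2 scale (SE 0.08, 1.79-fold, limma adjusted p = 0.000324). With PTU it rose in wild-type lungs relative to control chow by 0.91 (SE 0.08, 1.88-fold, adjusted p = 5.8e-05). PTU gave a difference of -0.01 in mRID lungs (adjusted p = 0.954), and with PTU mRID differed from wild type by -0.09 (adjusted p = 0.542). Plk1 is read here by 1 probe.

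The promoters of the mitosis genes share letters that the naming rule did not use. RefSeq promoter windows on GRCm38.p6, running from 250 bases before to 50 after the start, were found for 41 of the 50 genes, in 44 windows; 9 genes were not matched. The core letters of the CHR, TTTGAA or TTTAAA on either strand, were in 36 of 44 windows, 81.8%, against 27.6% of all 32851 windows. The hexamers differed when counted apart. TTTGAA was in 33 of 44 windows, against 17.9% of all windows. TTTAAA was in 9 of 44, 20.5%, against 13.2% of all windows. The CCAAT letters bound by NF-Y, on either strand, were in 34 of 44, 77.3%, against 37.4% of all windows. A hexamer and CCAAT can share an end letter, and the 2 kinds were counted separately. The 150 bases before the start are shown for the genes called in any comparison, Plk1 (chr7:122159285-122159434, plus strand), Kif2c (chr4:117178773-117178922, minus strand) and Nusap1 (chr2:119618148-119618297, plus strand), and for Cdc20 (chr4:118437344-118437493, minus strand), the brightest checkpoint gene, which carries both kinds of letters close to the start. Each is printed 5' to 3' along the gene's strand, with CHR and CCAAT letters in capitals; TTCAAA is TTTGAA read on the other strand.
Plk1: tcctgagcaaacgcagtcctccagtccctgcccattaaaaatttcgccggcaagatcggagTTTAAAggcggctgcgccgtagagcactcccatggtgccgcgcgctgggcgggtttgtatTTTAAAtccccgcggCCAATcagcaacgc
Kif2c: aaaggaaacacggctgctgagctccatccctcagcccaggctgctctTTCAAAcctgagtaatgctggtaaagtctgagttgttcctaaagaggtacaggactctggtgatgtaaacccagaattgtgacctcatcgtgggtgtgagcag
Nusap1: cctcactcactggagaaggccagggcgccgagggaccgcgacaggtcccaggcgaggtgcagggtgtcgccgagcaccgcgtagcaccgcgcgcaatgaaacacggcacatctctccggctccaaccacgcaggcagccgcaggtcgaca
Cdc20: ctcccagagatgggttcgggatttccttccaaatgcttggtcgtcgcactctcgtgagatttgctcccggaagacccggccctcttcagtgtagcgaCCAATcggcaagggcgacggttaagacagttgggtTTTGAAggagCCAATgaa
Plk1 has TTTAAA 89 and 29 bases before the start and CCAAT 14 bases before it. The printed Plk1 stretch holds no TTTGAA, the hexamer that set the member windows further apart from all windows. Kif2c has TTCAAA 103 bases before the start. Cdc20 has TTTGAA 18 bases before the start, with CCAAT at 53 and 8. The printed Nusap1 stretch holds neither kind of letters.

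The first comparison was of genotype on control chow, mRID against wild type. Of the 35 genes, 31 were higher in mRID lungs and 4 lower, with a median log2 difference of 0.25, against 0.01 for all genes; 52.5% of all genes were higher. A gene was called at an adjusted p under 0.05 over all genes with a difference of at least 1.5-fold. By that rule 1 of 35 was called higher (Plk1) and 0 lower by limma, where 0.437% of all genes were called higher and 1.16% lower. At an unadjusted p under 0.05, 21 were higher and 0 lower, where 9.87% and 10.2% of all genes were. At an adjusted p under 0.05 with no fold threshold, 8 of 35 were higher, 22.9%, against 2.13% of all genes: Plk1, Foxm1, Cdc20, Cenpa, Kif22, Kif2c, Nusap1 and Ncapd2. For 26 of 35 genes, 74.3%, both mRID arrays lay above both wild-type arrays, against 26% of all genes. That count of 8 depended on other choices: it was 1 with median scaling in place of quantile normalization, 11 with no background correction, 10 with an offset of 50, and 1 to 6 when 1 array was left out, without a change in the call of Plk1.

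The second comparison was of PTU against control chow in wild-type lungs. The median difference of the mitosis genes was 0.22, against 0.02 for all genes, and 32 of 35 were higher with PTU, where 53.9% of all genes were. Plk1 was the 1 gene called higher, where 1.1% of all genes were called higher and 2.43% lower. At an unadjusted p under 0.05, 17 were higher and 0 lower, where 13.9% and 12.7% of all genes were. With no fold threshold 9 of 35 were higher, 25.7%, against 5.3% of all genes: Plk1, Aurka, Cdc20, Cenpa, Ndc80, Kif22, Kif2c, Ncaph and Anln. Both PTU arrays lay above both control arrays for 26 of 35 genes, 74.3%, against 30.5% of all genes. The count of 9 was 2 with median scaling, 11 with no background correction and 2 to 8 when 1 array was left out. This comparison and the one before share the wild-type control arrays, so the same low arrays enter both.

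The third comparison, PTU against control chow in mRID lungs, had a median of -0.12, against -0.02 for all genes. With PTU 28 of 35 genes were lower and 7 higher, where 54.9% of all genes were lower. No gene was called by limma (0 of 35), where 2.51% of all genes were called higher and 0.816% lower; at an unadjusted p under 0.05, 3 members were higher and 7 lower, where 11.9% and 13.6% of all genes were. With no fold threshold Kif23 was higher and Incenp, Tpx2 and Nusap1 were lower at an adjusted p under 0.05, where 5.86% of all genes were higher and 4.5% lower. Both PTU arrays lay below both control arrays for 15 genes, 42.9%, against 30.8% of all genes, and above for 4, against 24.2%. With median scaling 23 genes were lower and 12 higher.

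The fourth comparison set mRID against wild type, both with PTU. The median was -0.10, against -0.04 for all genes, with 27 of 35 genes lower in mRID lungs, where 57.8% of all genes were. By limma 0 members were called, where 3.51% of all genes were called higher and 0.66% lower; at an unadjusted p under 0.05, 3 were higher and 5 lower, where 12.3% and 14.7% of all genes were. With no fold threshold Ccna2 and Spc24 were higher and Anln was lower, where 7.55% and 5.1% of all genes were. Both mRID arrays lay below both wild-type arrays for 19 genes, 54.3%, against 33.9% of all genes.

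The genotype by diet term was the PTU difference in mRID lungs minus that in wild-type lungs. It was negative for 29 of 35 genes, where 55.9% of all genes were. Its median was -0.37, against -0.04 for all genes. The wild-type control arrays, low in the first and second comparisons, enter this term too. Plk1, Nusap1 and Kif2c were called negative, 3 of 35, where 3.26% of all genes were called negative and 6.18% positive. Plk1 had a term of -0.92 (SE 0.12, adjusted p = 0.000613) and Nusap1, which bundles spindle microtubules around chromosomes, one of -0.64 (SE 0.12, adjusted p = 0.00619). A second, dimmer Nusap1 probe, fitted on its own, gave -0.53 (adjusted p = 0.265). Kif2c, the kinesin that depolymerises microtubules at centromeres, had a term of -0.59 (SE 0.16, adjusted p = 0.0286); its call was lost in 6 of 9 alternative settings and in 6 of 8 fits with 1 array left out, while those of Plk1 and Nusap1 were kept in all of them. With no fold threshold 11 of 35 terms, 31.4%, were negative at an adjusted p under 0.05, against 7.04% of all genes, and 0 were positive, against 8.68%. At an unadjusted p under 0.05, 0 were positive as well, where 15% of all genes were. The 11 were Plk1, Aurka, Foxm1, Cdc20, Incenp, Cenpa, Kif2c, Tpx2, Nusap1, Top2a and Anln; the count was 3 with median scaling, 14 with no background correction and 4 to 7 when 1 array was left out.

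**Figure D2:**
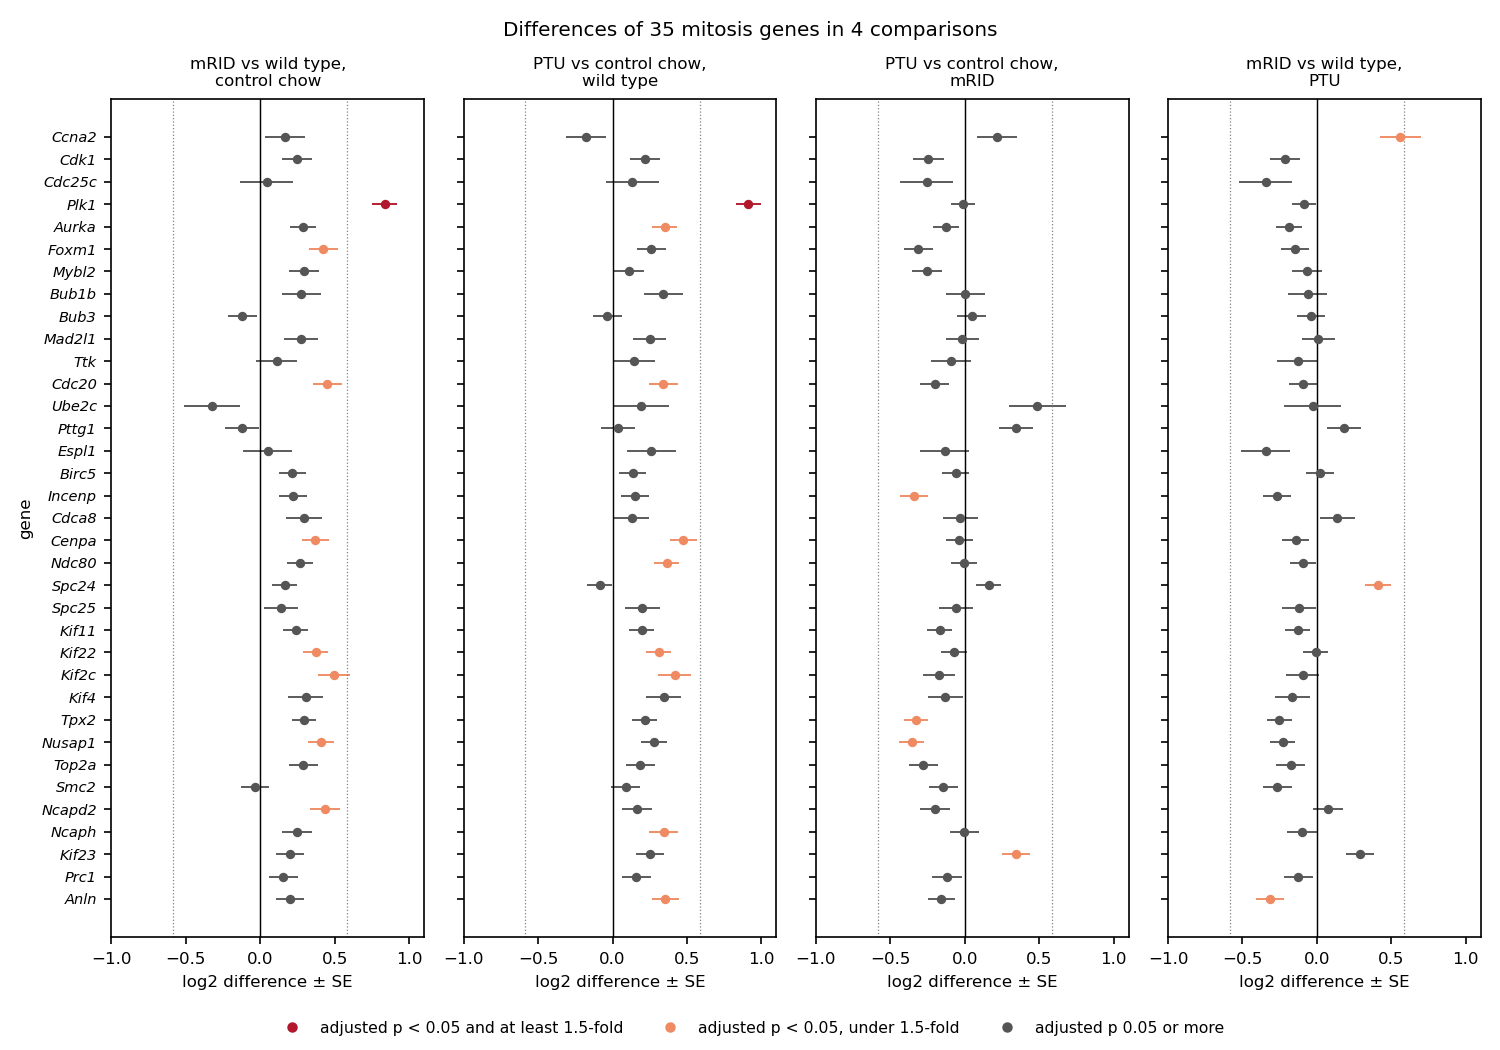
Log2 differences of the 35 mitosis genes (points, with bars of 1 SE) in the 4 comparisons of 2 groups; dotted lines mark 1.5-fold and colour the test result. Most points lie above 0 for mRID against wild type on control chow (31 of 35) and for PTU in wild-type lungs (32 of 35), and below 0 for PTU in mRID lungs (28 of 35) and for mRID against wild type with PTU (27 of 35).

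Among the genes that start mitosis, 5 of 8 were tested. Cdk1, the kinase whose activation with B-type cyclins starts mitosis, had log2 signals of 8.76 and 8.59 in mRID PTU lungs, 8.91 and 8.93 in mRID control lungs, 8.86 and 8.92 in wild-type PTU lungs and 8.56 and 8.78 in wild-type control lungs. The mRID control and wild-type PTU arrays lay above the others, and no difference passed the test (0.25 for genotype on control chow, 0.22 for PTU in wild type, with adjusted p-values of 0.203 and 0.201). Aurka, the centrosomal Aurora kinase, differed by 0.35 with PTU in wild type, under the fold threshold (adjusted p = 0.0268). Cdc25c, a phosphatase that activates CDK1, differed by 0.04 for genotype on control chow and by 0.13 for PTU in wild type, with mRID control arrays at 4.94 and 5.53, so its arrays spread more than its groups. Ccna2, cyclin A2, went another way: 5.22 and 5.37 in mRID PTU lungs, 5.23 and 4.92 in mRID control lungs, 4.58 and 4.89 in wild-type PTU lungs and 4.81 and 5.01 in wild-type control lungs. With PTU it was higher in mRID than in wild-type lungs by 0.56 (SE 0.13, 1.48-fold, adjusted p = 0.0221), just under the fold threshold, and wild-type PTU lungs detected it on 1 array of 2.

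Both transcription factors of the set were tested. Foxm1, a forkhead activator of G2 and mitosis genes, was at 6.59 and 6.49 in mRID PTU lungs, 6.74 and 6.96 in mRID control lungs, 6.66 and 6.71 in wild-type PTU lungs and 6.39 and 6.46 in wild-type control lungs. The mRID control arrays were its highest, and its difference from wild type on control chow was 0.42 (adjusted p = 0.0342). A second Foxm1 probe, fitted on its own, gave 0.37 there (adjusted p = 0.105). In other comparisons the probes differed. For PTU in wild type the second probe gave -0.02, against 0.26. For mRID against wild type with PTU it gave 0.14, against -0.15. Its genotype by diet term was -0.23 (limma adjusted p = 0.355), against -0.57. Mybl2, the B-Myb factor, had 7.2 and 7.0 in mRID PTU lungs, 7.29 and 7.41 in mRID control lungs, 7.12 and 7.22 in wild-type PTU lungs and 7.0 and 7.12 in wild-type control lungs. It did not pass in any comparison (0.29 for genotype on control chow, adjusted p = 0.128), and its kept probes disagreed in sign.

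Of the checkpoint and anaphase genes 8 of 9 were tested. Cdc20, the activator of the anaphase-promoting complex that the checkpoint inhibits, was at 8.51 and 8.58 in mRID PTU lungs, 8.86 and 8.64 in mRID control lungs, 8.59 and 8.69 in wild-type PTU lungs and 8.33 and 8.27 in wild-type control lungs. Its wild-type control arrays were the lowest, with a difference of 0.45 for genotype on control chow (adjusted p = 0.0264) and of 0.34 for PTU in wild type (adjusted p = 0.045), both under the fold threshold. The other kept Cdc20 probes, each fitted on its own, gave 0.19, 0.41 and 0.21 for genotype on control chow. For PTU in wild type they gave 0.19, 0.03 and 0.24. None of them passed at an adjusted p under 0.05 in either comparison. The checkpoint genes Bub1b and Mad2l1 differed by 0.27 each for genotype, and by 0.34 and 0.25 for PTU in wild type, without passing. Ube2c, the ubiquitin-conjugating enzyme of the anaphase-promoting complex, had 5.20 and 5.67 in mRID PTU lungs, 5.13 and 4.76 in mRID control lungs, 5.43 and 5.50 in wild-type PTU lungs and 5.53 and 5.02 in wild-type control lungs. It had the largest difference of any tested member for PTU in mRID lungs, 0.49 (SE 0.19, adjusted p = 0.138), but the arrays of its groups spread nearly as widely. Securin (Pttg1), the inhibitor of separase, had its highest mean in mRID PTU lungs, with a PTU difference of 0.35 there (adjusted p = 0.0833). Bub3 was the 1 tested member with its highest mean in wild-type control lungs, with differences of -0.12 for genotype and -0.03 for PTU in wild type. Ttk, a checkpoint kinase, and Espl1, the separase protease, passed in no comparison; their differences on control chow were 0.11 and 0.05.

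**Figure D3:**
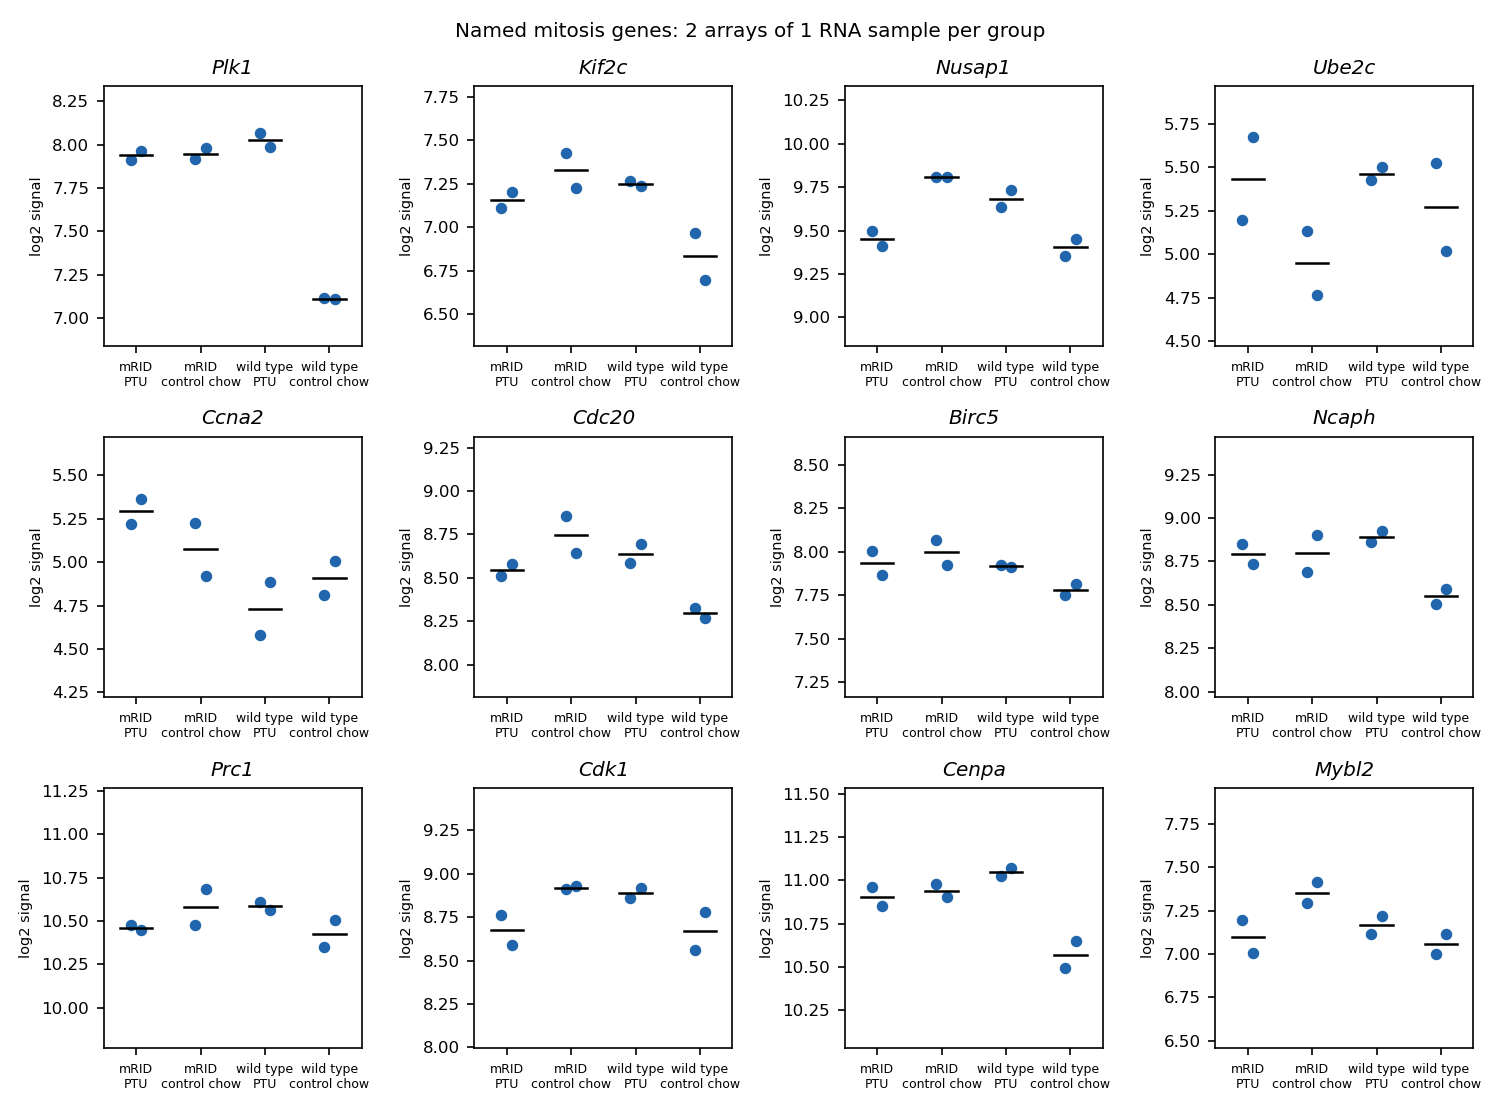
Log2 signal of the named mitosis genes on each array (points, with a line at the group mean), grouped as mRID PTU, mRID control, wild-type PTU and wild-type control from left to right. Plk1 is at 7.11 on both wild-type control arrays and at 7.91 or above on the other 6.

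In the chromosomal passenger complex, which corrects attachments and directs cytokinesis, 3 of 4 genes were tested. Birc5, survivin, was at 8.01 and 7.87 in mRID PTU lungs, 8.07 and 7.92 in mRID control lungs, 7.92 and 7.91 in wild-type PTU lungs and 7.75 and 7.81 in wild-type control lungs. The wild-type control arrays were again the lowest, but its difference of 0.21 for genotype on control chow did not pass (adjusted p = 0.221). Incenp, the scaffold of the complex, had a PTU difference of -0.34 in mRID lungs (adjusted p = 0.0445), under the fold threshold. Cdca8, borealin, passed in no comparison.

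Of 7 kinetochore genes 4 were tested. Cenpa, the histone H3 variant that marks centromeres, had 10.96 and 10.85 in mRID PTU lungs, 10.98 and 10.90 in mRID control lungs, 11.03 and 11.07 in wild-type PTU lungs and 10.49 and 10.65 in wild-type control lungs. Its 6 other arrays all lay above the wild-type control pair, and its differences were 0.37 for genotype on control chow (adjusted p = 0.0459) and 0.48 for PTU in wild type (adjusted p = 0.0076), both under the fold threshold. Ndc80, which binds spindle microtubules, differed by 0.27 and 0.36, and the second passed at an adjusted p of 0.0235. Its partner Spc24 was highest in mRID PTU lungs, at 7.35 and 7.25, against 6.92 and 6.87 in wild-type PTU lungs, a difference of 0.41 (adjusted p = 0.0107). A second, dimmer Spc24 probe gave -0.10 there. Its other partner Spc25 differed by -0.12 in that comparison (adjusted p = 0.535).

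The spindle proteins held 2 of the 3 called genotype by diet terms, with 6 of 7 genes tested. Kif2c was at 7.11 and 7.20 in mRID PTU lungs, 7.43 and 7.23 in mRID control lungs, 7.26 and 7.24 in wild-type PTU lungs and 6.97 and 6.70 in wild-type control lungs. Nusap1 was at 9.50 and 9.41 in mRID PTU lungs, 9.81 and 9.81 in mRID control lungs, 9.64 and 9.73 in wild-type PTU lungs and 9.35 and 9.45 in wild-type control lungs. In Nusap1 the mRID PTU arrays were nearer to wild-type control than to mRID control: with PTU its mRID difference was -0.36 (adjusted p = 0.0269) and in wild type it was 0.28 (adjusted p = 0.062). Tpx2, which activates Aurora A on the spindle, had -0.33 with PTU in mRID lungs (adjusted p = 0.0321) and 0.22 in wild type (adjusted p = 0.121). The kinesins Kif11, Kif22 and Kif4 were higher in mRID than in wild-type lungs on control chow by 0.24, 0.37 and 0.31, and of these Kif22 passed at an adjusted p of 0.0374 below the fold threshold.

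Of 7 genes for chromosome structure 4 were tested. Ncaph, a condensin I subunit, was at 8.85 and 8.73 in mRID PTU lungs, 8.69 and 8.90 in mRID control lungs, 8.86 and 8.93 in wild-type PTU lungs and 8.51 and 8.59 in wild-type control lungs. It was above both wild-type control arrays on the other 6, with a difference of 0.34 for PTU in wild type (adjusted p = 0.0465) and of 0.25 for genotype (adjusted p = 0.196). Top2a, the topoisomerase that untangles sister chromatids, differed by 0.29 for genotype on control chow and by 0.18 for PTU in wild type without passing, and had a genotype by diet term of -0.46 (adjusted p = 0.0446). Ncapd2, another condensin subunit, had 0.44 for genotype (adjusted p = 0.0373), but its other kept probes gave -0.21 and -0.13. Smc2, the condensin ATPase, had -0.04 for genotype and 0.09 for PTU in wild type, and did not pass.

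Of 6 cytokinesis genes 3 were tested. Kif23, the kinesin of centralspindlin, was at 8.09 and 8.21 in mRID PTU lungs, 7.86 and 7.75 in mRID control lungs, 7.94 and 7.78 in wild-type PTU lungs and 7.61 and 7.60 in wild-type control lungs. Unlike most of the set its mRID PTU arrays were the highest, with a PTU difference of 0.34 in mRID lungs (adjusted p = 0.0436); relative to wild-type control, mRID PTU lungs were 0.54 higher (adjusted p = 0.00383), under the fold threshold. Prc1, which bundles the antiparallel microtubules of the midzone, was at 10.48 and 10.45 in mRID PTU lungs, 10.48 and 10.69 in mRID control lungs, 10.61 and 10.56 in wild-type PTU lungs and 10.35 and 10.50 in wild-type control lungs, and passed nowhere. Anln, the anillin scaffold of the cleavage furrow, had 0.36 for PTU in wild type (adjusted p = 0.0323) and -0.31 for mRID against wild type with PTU (adjusted p = 0.0492), where its other kept probe gave 0.27.

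Ordering the 4 groups by level, 15 genes were highest in mRID control lungs and 15 in wild-type PTU lungs (42.9% each, against 22.1% and 31% of all genes), 4 in mRID PTU lungs (Ccna2, Pttg1, Spc24 and Kif23) and 1 in wild-type control lungs. No neighbouring groups in the order differed by the call rule in any member except Plk1, whose mRID PTU level, the third, was above wild-type control. mRID control and wild-type PTU lungs differed in 0 of 35 members by the call rule in limma, where 1.09% of all genes were called, with 17 positive and 18 negative differences. At an unadjusted p under 0.05, 3 members were higher and 1 was lower in mRID control lungs, where 8.88% and 7.87% of all genes were. Another limma fit took the means of the 4 RNA samples, with additive genotype and diet terms and 1 residual degree of freedom. That residual is the genotype by diet term itself, so a gene with a large term has a large error there. The fit therefore cannot tell spread between RNA samples from that term. In it 0 members and 0 of all genes passed for genotype or diet at an adjusted p under 0.05. At an unadjusted p under 0.05, 0 members passed, where 2.42% of all genes did for genotype and 3.24% for diet. Plk1 there had 0.37 for genotype (SE 0.22, unadjusted p = 0.12) and 0.45 for diet (SE 0.22, unadjusted p = 0.0693). For 11 tested genes several probes passed the filter; their signs were shared within the gene for 8 of 11 in the genotype comparison on control chow for 6 of 11 for PTU in wild type, for 5 of 11 for PTU in mRID lungs, for 5 of 11 for mRID against wild type with PTU, and for 7 of 11 in the genotype by diet term. Mybl2 and Ncapd2 were discordant in all of these. The other discordant genes were Kif4 in the first; Foxm1, Kif4 and Spc24 in the second; Anln, Cdc20, Kif4 and Spc24 in the third; Anln, Birc5, Foxm1 and Spc24 in the fourth; and Anln and Spc24 in the term. Fitted each on its own, 5 of the 51 member probes had a genotype by diet term called negative, 9.8%, against 3.23% of all 14965 probes, and 0 a positive one, against 6.3%; the added ones were second probes of Birc5 (-0.62) and Spc25 (-0.62).

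Other cell division genes were read from lists that are no part of the set. A further 64 mitosis genes, of which 42 were tested, had medians of 0.20 for genotype on control chow, 0.15 for PTU in wild type, -0.14 for PTU in mRID and -0.16 for mRID against wild type with PTU. Called among the 42 were Dlgap5, a spindle assembly protein, higher in wild-type PTU lungs (0.74), and 6 genotype by diet terms, all negative. Of all genes, 1.1% were called higher for PTU in wild type. Genotype by diet terms were called negative for 3.26% of all genes and positive for 6.18%. DNA replication genes, 35 of 42 tested, had medians of 0.28, 0.20, -0.28 and -0.16 in the same order; Mcm6, a subunit of the replicative helicase, was called higher for genotype (0.83) and for PTU in wild type (0.67), and 9 genotype by diet terms were called, all negative. Subunits of the anaphase-promoting complex, which also act outside mitosis, had medians of 0.07 and 0.04 over 14 genes for genotype on control chow and for PTU in wild type, with single differences between -0.21 and 0.23. The cohesin list, 9 of 11 tested, had medians of 0.04 and 0.03 there. The list of G1 cyclins and kinases also holds E2F transcription factors and the phosphatase Cdc25a. With 9 of 14 tested, it had medians of 0.14, 0.07, 0.05 and -0.03 in the 4 comparisons. Called higher in it for PTU in mRID lungs were E2f2 (0.95) and Cdc25a, neither a cyclin nor a kinase, where 2.51% of all genes were. For mRID against wild type with PTU they were E2f2 (1.32), Cdc25a and Ccnd2, where 3.51% of all genes were. In this list 1 genotype by diet term was called, a positive one, and the highest term was that of E2f2 (1.18). DREAM and MuvB subunits, 8 of 12 tested, had medians of -0.03 and -0.02, and 1 of them, Tfdp2, fell with PTU in wild type, at -0.61. Of the cyclin-dependent kinase inhibitors 6 of 7 were tested, with medians of -0.12 and -0.16, and Cdkn1a, p21, had the lowest difference for PTU in wild type, -0.36, under the fold threshold.

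**Figure D4:**
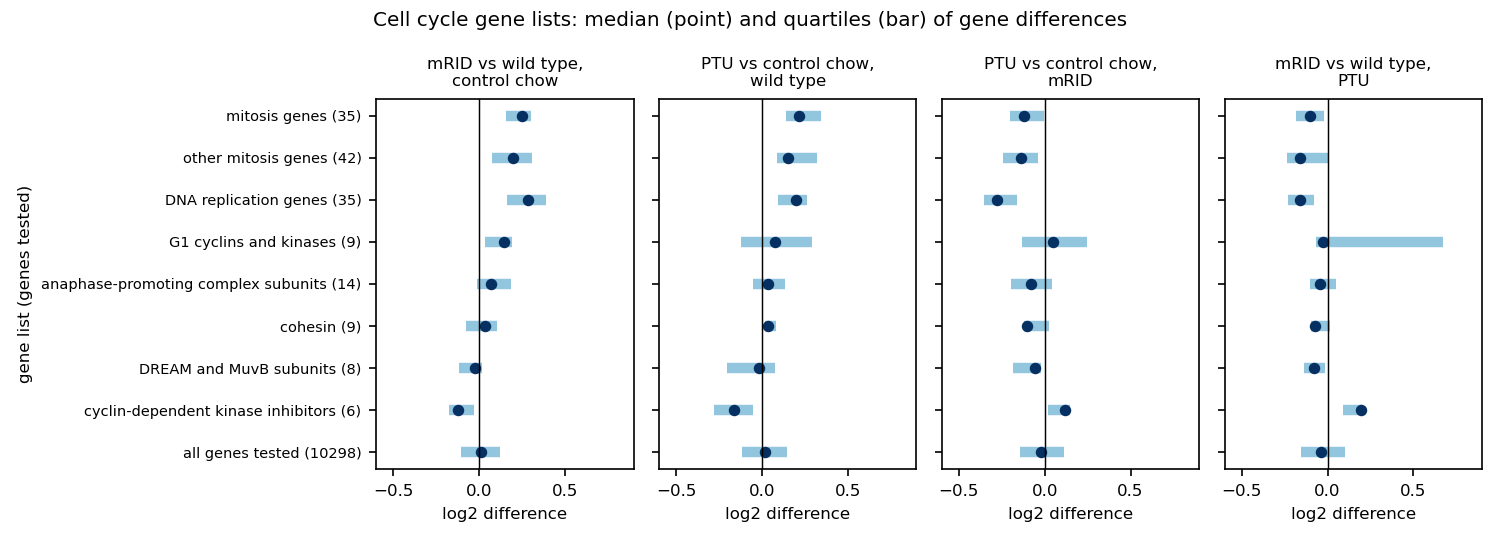
Median log2 difference (point) and quartiles (bar) of the mitosis genes, the other cell division lists and all genes tested in the 4 comparisons of 2 groups. Mitosis genes had medians of 0.25 and 0.22, and DNA replication genes 0.28 and 0.20, in the first pair of comparisons, while the anaphase-promoting complex list had 0.07 and 0.04.

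Marker lists of other cells differed between the same groups, in either direction. Their medians are given for genotype on control chow, PTU in wild type and PTU in mRID lungs, in that order. Erythroid genes, 9 of 14 tested, had medians of 0.35, 0.10 and -0.48. Their genotype by diet terms had a median of -0.75, with 6 called negative and 1 positive. For mRID against wild type with PTU their median was -0.56, with 4 called lower and 1 higher. The erythroid genes did not move as one with PTU in wild type, where 5 were higher and 4 lower. Hbb-y, an embryonic globin, had the highest difference, 1.18, and Trim10 the lowest, -0.79, both called. Their summed signals were 23600 and 25210 in mRID PTU lungs, 24800 and 26110 in mRID control lungs, 23670 and 22670 in wild-type PTU lungs and 25540 and 24040 in wild-type control lungs. Endothelial markers, 8 of 10 tested, had medians of -0.20, -0.25 and 0.14, and mesenchymal markers, 10 of 10 tested, -0.11, -0.17 and 0.15, opposite in sign to the mitosis genes. Heart muscle markers, 6 of 8 tested, had -0.85, -1.79 and -0.67. The heart muscle sum was 1329 and 1384 in mRID PTU lungs, 2199 and 2181 in mRID control lungs, 1208 and 1135 in wild-type PTU lungs, and 4306 and 4089 in wild-type control lungs, where it was highest. Skeletal muscle markers, 7 of 8 tested, had -0.31, -0.48 and 0.62, and 7 of 7 genotype by diet terms were called positive. Their sum was 669.7 and 644.3 in mRID PTU lungs, 318.5 and 332.7 in mRID control lungs, 274.9 and 267.4 in wild-type PTU lungs, and 438 and 446.1 in wild-type control lungs. Neutrophil markers, 7 of 9 tested, had -0.31, -0.07 and 0.23, and macrophage markers, 5 of 9 tested, -0.02, 0.01 and 0.23. Of 12 thymocyte markers 4 were tested. Liver markers, 4 of 8 tested, were detected on both arrays for 4 genes in mRID PTU lungs and for at most 1 in each other group. The filter keeps a gene detected in any 1 group, so most of these were tested through mRID PTU lungs alone. The detection counts are therefore no measure of a difference between groups. The part of these cells in the result was not tested.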

How the data were processed

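Total RNA of embryonic lungs was hybridised to Illumina bead arrays. Per the file headers, the deposited table gives an average signal per probe as intensity together with a detection p-value, and the submitters' processing notes name GenomeStudio, whose version is not stated. A second deposited table of normalized intensity, with scale and background steps unstated, was used as an alternative. Of 25697 probes, 23978 carried 1 gene symbol and 1719 were unnamed. The signals were background corrected with detection p-values, given an offset of 16, quantile normalized and put on the log2 scale with limma 3.58.1 in R 4.3.3; the authors' deposited values were not on the log2 scale. Probes with detection p-values below 0.05 on the 2 arrays of any 1 group were kept (14965 probes, 10298 genes), and the brightest kept probe stood for a gene. All genes were fitted together with a mean per group and Benjamini-Hochberg adjustment; a gene was called at an adjusted p under 0.05 and at least 1.5-fold. A second fit used the means of the 4 RNA samples. The procedure was tested on simulated data.

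Full values were given for members called in any comparison, for those with the largest difference in each, and for the brightest of each role; other members were described by counts, with examples. The members and lists were chosen with earlier results of these data known. Whether replicate numbers pair the arrays was checked by correlating deviations from group means; over pairs the values were -0.10 to 0.13, so the numbers were not taken as pairing. The search for destruction motifs in proteins was not run. Alternatives covered background, normalization, offset, filter, probe choice, source table, arrays left out and blocks. The number of arrays, 2 per group, limits the precision.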

Additional observations from a re-analysis of the deposited data

Results flagged for a closer look

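The PTU difference between RNA samples was not the same in mRID and wild-type lungs for Plk1, Nusap1 and Kif2c. This is by the test of the genotype by diet term (limma), which covers array error only. The wild-type control arrays enter this term, as they enter the comparisons of genotype on control chow and of PTU in wild type. The Plk1 term was -0.92, with a PTU difference of -0.01 in mRID lungs and 0.91 in wild-type lungs. The Nusap1 term was -0.64, with -0.36 in mRID lungs and 0.28 in wild-type lungs. Its second, dimmer probe gave a term of -0.53 that did not pass (limma adjusted p = 0.265), with -0.06 in mRID lungs and 0.47 in wild-type lungs. The Kif2c term was -0.59, with -0.17 in mRID lungs and 0.42 in wild-type lungs. Each rests on 1 RNA sample per group.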

How the results depend on the processing

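Plk1 stayed called under all 9 other settings and all 8 fits without 1 array, for genotype on control chow (0.69 to 0.87), for PTU in wild type (0.75 to 0.95) and for the genotype by diet term (-0.96 to -0.76); Nusap1's term stayed called as well (-0.69 to -0.59), while Kif2c's lost its call in 6 of 9 and in 6 of 8. The median member difference for genotype on control chow, PTU in wild type, PTU in mRID and the genotype by diet term was 0.193, 0.173, -0.066 and -0.273 with no background correction, 0.147, 0.184, -0.070 and -0.287 with median scaling (and -0.125 for mRID against wild type with PTU), 0.198, 0.175, -0.068 and -0.278 with an offset of 50, 0.189, 0.170, -0.070 and -0.281 with the deposited normalized values, and 0.215, 0.185, -0.071 and -0.337 with no detection filter; with the mean of a gene's probes it was -0.071 for PTU in mRID. With median scaling the medians of all genes moved as well. They were -0.074 for genotype on control chow and -0.085 for mRID against wild type with PTU. Member medians minus those of all genes were 0.222 and -0.039 there, against 0.239 and -0.062 in the main setting. Without the fold threshold 8, 9, 4, 3 and 11 members passed in the 5 tests, mRID against wild type with PTU being the fourth. In either direction these were 22.9%, 25.7%, 11.4%, 8.57% and 31.4% of members, where 4.85%, 11.8%, 10.4%, 12.7% and 15.7% of all genes passed. For other settings and arrays left out, counts are given without that share, except for each probe fitted on its own. The count of 3 was 7 with no background correction, 6 with an offset of 50, 5 with the deposited values, 1 with no filter and 1 with the mean of probes. The count of 8 was 1 with median scaling, 4 with no filter and 5 with the mean of probes; the count of 9 was 2 with median scaling, that of 4 was 1 with median scaling and 2 with no filter, and that of 11 was 3 with median scaling. Each probe fitted on its own, an alternative chosen after seeing the data, called 5 negative genotype by diet terms among 51 probes (9.8%, against 3.23% of all probes). The cause of these changes was not tested.

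The replicate numbers were not taken to pair the arrays, as array differences by number correlated weakly between groups (-0.10 to 0.13). Such correlations cannot show whether arrays of the same number were handled together. With the array letter as a replicate block the count for PTU in mRID was 2, against 4; on the deposited values with the replicate number as a replicate block the medians were 0.189, 0.170, -0.070 and -0.281, and 6 members passed for mRID against wild type with PTU.

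With 1 array left out in turn, the medians ran from 0.236 to 0.280 for genotype on control chow, 0.188 to 0.250 for PTU in wild type, -0.119 to -0.088 for PTU in mRID, -0.119 to -0.100 for mRID against wild type with PTU and -0.393 to -0.331 for the term. Calls ran from 1 to 2, 1 to 1, 0 to 0, 0 to 1 and 2 to 5, and members passing at any fold from 1 to 6, 2 to 8, 0 to 3, 0 to 2 and 4 to 7.

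Of 1015 single-gene values of the members given in full, 19 turned sign, none of a called result. The other 23 tested members were not compared singly. With median scaling, PTU in mRID was 0.033 for Plk1 and 0.012 for Ncaph, and mRID against wild type with PTU was -0.021 for Birc5. With the mean of probes Mybl2 had -0.019 for PTU in wild type and 0.022 for mRID against wild type with PTU, where Birc5 had -0.098. With 1 array left out, PTU in wild type ran from -0.061 to 0.445 for Ube2c; PTU in mRID from -0.134 to 0.013 for Birc5, -0.088 to 0.017 for Cenpa, -0.040 to 0.019 for Plk1 and -0.109 to 0.105 for Ncaph; and mRID against wild type with PTU from -0.267 to 0.210 for Ube2c, -0.049 to 0.089 for Birc5 and -0.164 to 0.028 for Mybl2. Dim probes such as those of Ube2c, Ccna2 and Cdc25c, and 2 arrays per RNA, limit what can be called.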
